A study of Mus musculus with 12 samples.

Results

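The transforming growth factor beta (TGF-β) and bone morphogenetic protein (BMP) family was described in satellite cells, the resident stem cells of skeletal muscle, through 58 protein-coding genes chosen by symbol out of 25093 genes in the count table. The symbols covered the TGF-β and BMP ligands, growth and differentiation factors (GDFs), activin and inhibin subunits, myostatin, latent TGF-β binding proteins, type I, II and III receptors, SMAD proteins, ID genes and the antagonists Fst, Fstl1, Fstl3, Nog, Grem1 and Chrd. Bmp1, a metalloprotease, and Bmp2k, a kinase, were matched by name and are not of the family by function. They are counted among the 58 members throughout.

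RNA was sequenced from satellite cells of mice aged 3 to 4 months, on a mixed 129SV and C57BL/6 background, that carried Pax7-CreERT2 and R26R-YFP and had all received tamoxifen. Control mice (Gli3+/+, labelled Gli3 Ctr) had intact Gli3, and in Gli3∆/∆ mice (labelled Gli3 KO) exon 8 of both floxed Gli3 alleles was removed by Cre in cells that express Pax7. Quiescent satellite cells (QSCs) came from all uninjured hindlimb muscles of 2 to 3 combined mice per library and were sorted as α7-integrin+ CD34+, and activated satellite cells (ASCs) came from tibialis anterior and gastrocnemius of 1 mouse per library, 3 days after cardiotoxin injury, sorted as α7-integrin+ VCAM1+. Both gates were negative for CD31, CD45, SCA1 and CD11b. The 12 libraries comprised 3 Gli3+/+ QSC, 3 Gli3∆/∆ QSC and 6 ASC libraries. The columns of the ASC libraries (ASC-246, ASC-540, ASC-543, ASC-928, ASC-960 and ASC-1818) show the state but not the genotype, so ASCs were described as 1 group. By the source names and genotype labels it holds 3 samples of each genotype. For 2 ASC samples the title disagrees with these labels on the genotype. Injury, muscles, gate and pooling of mice changed together with the state and cannot be told apart in a comparison of ASCs with QSCs, nor can fewer cells of a type and less RNA per cell.

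Family ligands are secreted as dimers and signal through a complex of type I and type II receptor kinases. TGF-β and activin-type ligands lead mainly to phosphorylation of SMAD2 and SMAD3, and BMP-type ligands to that of SMAD1, SMAD5 and SMAD9, which enter the nucleus with SMAD4. Inhibitory SMADs and ID genes are transcribed in response, and in muscle the family is best known through myostatin, a brake on muscle growth, and through BMP signals that keep myogenic progenitors from differentiating. GLI3, the factor deleted here, is a transcriptional effector of Hedgehog signaling, and the genotype comparison asks which of the family's genes differ in level without it.

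Library totals ranged from 36886130 to 65750131 estimated counts. Levels are given in CPM, the counts of a gene scaled to a common library total with TMM factors over all 12 libraries, and levels of different genes are compared only per kilobase (kb) of exon. Pax7 was at 800.3 to 1181 CPM in QSCs and at 50.9 to 117 CPM in ASCs. Myod1 was at 112 to 159 CPM in QSCs and 340.1 to 565 CPM in ASCs. The QSC markers Chodl and Calcr were near absent from ASCs (at most 26.4 and 3.32 CPM). Pax7, Chodl and Calcr are among 9 listed satellite cell markers. The list summed to 6161 to 7867 CPM in QSCs and 1452 to 2373 CPM in ASCs. Of its other markers Myf5, Vcam1, Cd34 and Sdc4 were lower in ASCs without overlap. Itga7 was higher in ASCs (653 to 979.7 against 369 to 535 CPM), and Cdh15 overlapped (149.5 to 316 against 231 to 494 CPM). ASC-928 stood apart: its log CPM values correlated at 0.935 to 0.946 with those of the other ASC libraries, and all 7 macrophage and leukocyte, 6 Schwann, 7 endothelial, 7 fibro-adipogenic and 6 mural markers were highest in it among ASCs. The summed macrophage and leukocyte markers reached 4939 CPM in ASC-928, against 234 to 663 CPM in the other ASC libraries and 10.2 to 27.1 CPM in QSCs. Summed Schwann markers were at 956 CPM in ASC-928, 23.9 to 89.8 CPM in the other ASC libraries, 69.7 to 99.8 CPM in Gli3+/+ QSCs and 34.1 to 50.4 CPM in Gli3∆/∆ QSCs. The fibro-adipogenic list, mostly Dpt and Col15a1, summed to 705 to 978 CPM in Gli3+/+ and 1014 to 1176 CPM in Gli3∆/∆ QSCs, with its defining marker Pdgfra at 1.59 to 3.82 CPM. The mural list, mostly Notch3, summed to 1653 to 2696 CPM in QSCs, and both sums were above the other ASC libraries (47.8 to 183 and 239 to 716 CPM). Not every marker went with its sum. In those ASC libraries Pdgfra was at 3.37 to 11.4 CPM, and the mural marker Rgs5 at 24.3 to 141 CPM against 11.1 to 43.5 CPM in QSCs. Genes of the dissociation response, among them Egr1, Fos, Hspa1a and Hspa1b, summed to 44389 to 63404 CPM in QSCs, 1824 to 2412 CPM in the other ASC libraries and 5483 CPM in ASC-928, where all 11 were highest among ASCs. The part of these differences in the results that follow was not tested, and results are given with and without ASC-928 where it changes them.

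The 4 ID genes encode inhibitors of basic helix-loop-helix factors such as MYOD1 and are classic BMP targets. All 4 were called between states, as was Smad6, a feedback inhibitor of BMP signaling, though other members changed more. Such calls were common: 39.1% of protein-coding genes were called higher in ASCs and 28.4% lower. Gdf15 was the single member called between genotypes. For this reason the windows from 250 bases before to 50 bases after the RefSeq start site of Id2, Id3, Id4, Smad6 and Gdf15 (GRCm38.p6) are shown, chosen after their values were seen. The windows are chr12:25096043-25096342 (minus strand) for Id2, chr4:136143572-136143871 (plus strand) for Id3, chr13:48260866-48261165 (plus strand) for Id4, chr9:64022010-64022309 (minus strand) for Smad6 and chr8:70632407-70632706 (minus strand) for Gdf15. The Id2 and Id3 windows lie inside the genes as GENCODE annotates them, because RefSeq places these starts further downstream. No window was listed for Id1. Capitals mark matches on either strand to GGCGCC, a palindrome bound by BMP-activated SMADs, or to GTCTAGAC, the palindromic SMAD box.
Id2: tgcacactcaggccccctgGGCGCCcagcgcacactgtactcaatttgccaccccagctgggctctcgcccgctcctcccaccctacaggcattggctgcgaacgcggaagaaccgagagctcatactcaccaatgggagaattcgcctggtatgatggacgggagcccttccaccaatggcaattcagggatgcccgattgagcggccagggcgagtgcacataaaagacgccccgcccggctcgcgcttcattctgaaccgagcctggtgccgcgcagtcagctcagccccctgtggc
Id3: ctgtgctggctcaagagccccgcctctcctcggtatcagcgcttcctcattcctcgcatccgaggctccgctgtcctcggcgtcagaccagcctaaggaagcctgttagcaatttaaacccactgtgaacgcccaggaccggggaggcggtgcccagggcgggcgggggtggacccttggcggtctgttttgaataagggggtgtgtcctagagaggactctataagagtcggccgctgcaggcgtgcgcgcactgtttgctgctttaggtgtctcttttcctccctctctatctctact
Id4: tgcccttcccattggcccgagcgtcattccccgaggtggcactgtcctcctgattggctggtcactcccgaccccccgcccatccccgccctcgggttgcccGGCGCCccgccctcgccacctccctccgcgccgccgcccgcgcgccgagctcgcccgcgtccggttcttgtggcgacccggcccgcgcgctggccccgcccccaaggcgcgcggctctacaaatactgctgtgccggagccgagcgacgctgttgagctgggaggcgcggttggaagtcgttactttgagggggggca
Smad6: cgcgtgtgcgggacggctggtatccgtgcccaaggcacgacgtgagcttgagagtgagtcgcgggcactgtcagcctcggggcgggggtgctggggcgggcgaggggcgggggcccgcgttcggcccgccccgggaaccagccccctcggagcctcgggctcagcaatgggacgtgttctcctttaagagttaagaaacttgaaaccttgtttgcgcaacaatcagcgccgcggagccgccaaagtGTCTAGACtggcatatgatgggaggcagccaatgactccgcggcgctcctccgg
Gdf15: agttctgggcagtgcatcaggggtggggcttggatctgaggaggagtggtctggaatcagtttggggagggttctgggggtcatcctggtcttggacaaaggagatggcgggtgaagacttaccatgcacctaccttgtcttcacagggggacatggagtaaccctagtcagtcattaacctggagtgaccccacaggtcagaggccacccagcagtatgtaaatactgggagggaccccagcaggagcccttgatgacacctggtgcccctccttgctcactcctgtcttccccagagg
The sequence GGCGCC was found in the Id2 window with its first base at −231 from the start site and in the Id4 window at −148, and not in that of Id3. The Smad6 window held GTCTAGAC at −4, and no motif searched was found in the Gdf15 window. Of 32851 promoter windows in the table, GGCGCC was in 11.9% and GTCTAGAC in 0.213%. Among the 52 windows listed for 42 members, 15 (28.8%) held GGCGCC and 1 held GTCTAGAC. The GLI consensus TGGGTGGTC, searched on both strands, was in 0.253% of all windows and in 0 of the 52. These matches describe the letters of the windows and nothing about binding.

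Per kb of exon, QSCs held most RNA of Id3 (241 ± 48.7 CPM per kb, SD, n = 6 libraries), Ltbp4 (223 ± 19), Id1 (138 ± 27.4) and Tgfbr3 (103 ± 12.5), the co-receptor betaglycan. The spread of Id3 and Ltbp4 overlapped, as did that of Id1 and Tgfbr3. Fstl1 and Bmp6 followed, both at a mean of 82.8 CPM per kb, then Ltbp1 at 77.9 and Bmp4 at 75.4, which did not differ beyond their spread. With the length of the longest transcript in place of all exons, Ltbp1 came to 125 CPM per kb and passed Tgfbr3 at 110.5, after Id3 (338), Ltbp4 (267) and Id1 (138). In ASCs the order was led by 3 ID genes, with Id1 at 73.2 ± 10.1, Id3 at 69.8 ± 7.62 and Id2 at 54.8 ± 9.32 CPM per kb (SD, n = 6), followed by Smad4 at 29.9 ± 2.3. At the low end, 14 members had a mean under 1 CPM in QSCs, 9 in ASCs and 8 in both, among them myostatin (Mstn), with 65 counts over 6 QSC libraries and 37 over 6 ASC libraries. All 58 members were tested, the lowest included.

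**Figure D1:**
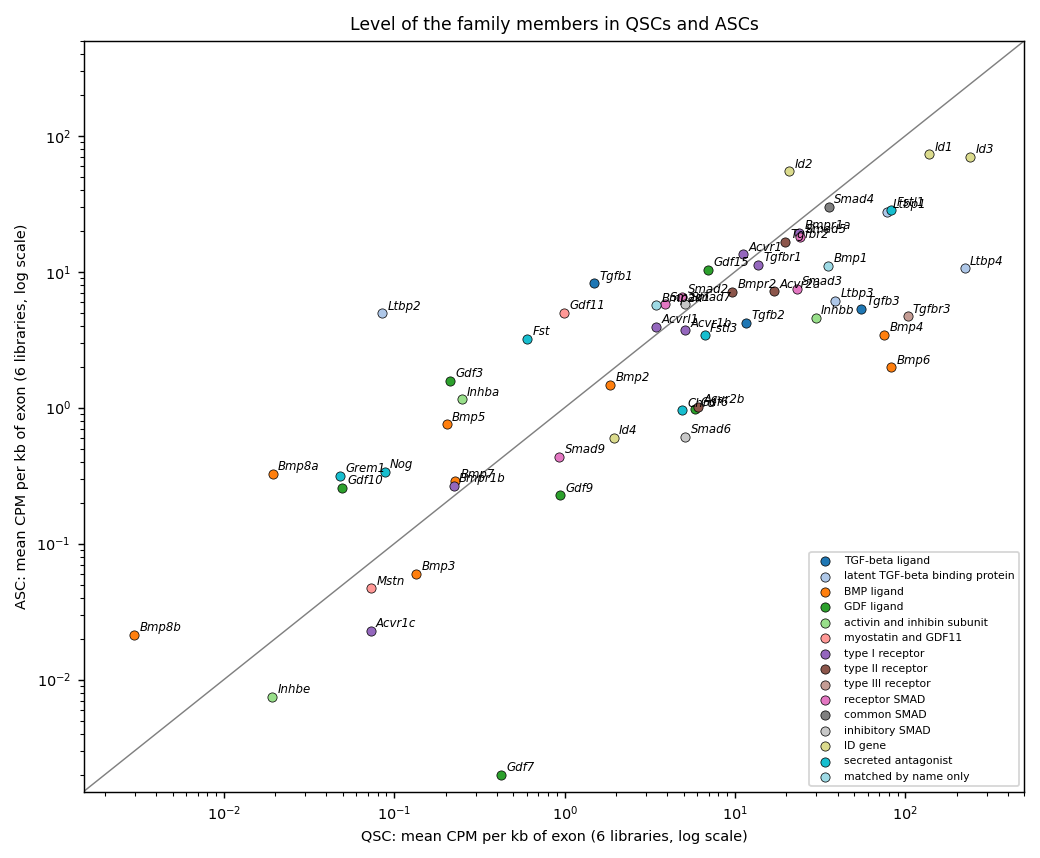
Mean level of the 58 members in QSCs (horizontal axis) and ASCs (vertical axis), in CPM per kb of exon over 6 libraries each, both on a log scale, with points coloured by role and a line of equal level. Ltbp4, Tgfbr3, Bmp4 and Bmp6 lie far below the line and Ltbp2 far above it, and Gdf7, with a count of 0 in every ASC library, is drawn at the lower edge.

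Between ASCs and QSCs, 44 of 58 members were called (edgeR quasi-likelihood test, Benjamini-Hochberg adjusted p under 0.05 over 25093 genes, and a fold change of at least 1.2). In ASCs 28 members (48.3%) fell and 16 (27.6%) rose. Over all genes 28.8% were called lower and 30.4% higher, and over the 16583 protein-coding genes 28.4% lower and 39.1% higher. The median log2 fold change of the members was −0.45, with Gdf7 set at its bound as well as fitted, against −0.03 over all genes and 0.19 over protein-coding genes. The ASC and QSC libraries did not overlap in 31 members (22 lower and 9 higher in ASCs), a share of 53.4% against 39.6% of all genes. All members are protein-coding, and this share was not computed over protein-coding genes. Those were called higher in ASCs more often than all genes (39.1% against 30.4%), so the difference in share cannot be put down to the family.

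**Figure D2:**
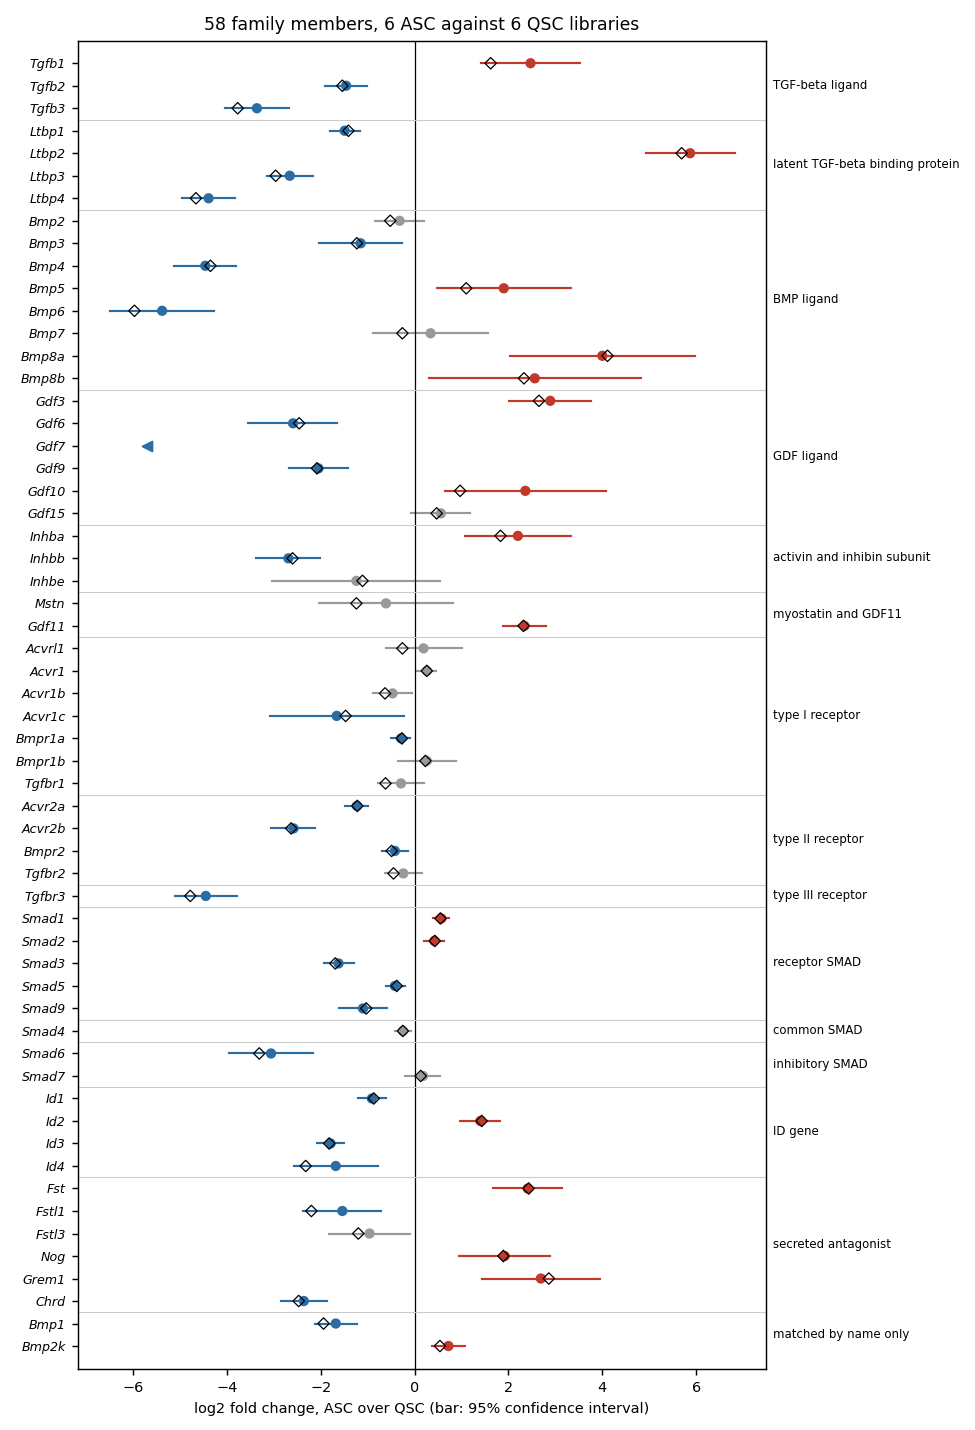
Fitted log2 fold change of each member in 6 ASC over 6 QSC libraries, grouped by role. Filled points with bars give the value and its 95% confidence interval (blue, called lower; red, called higher; grey, not called), open diamonds the value without ASC-928, and the triangle the bound for Gdf7, which was at 0 in ASCs. Of the members, 28 are blue or carry the triangle and 16 are red.

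The 3 TGF-β ligands did not move together. Tgfb3 (ENSMUSG00000021253.7, chromosome 12, 86056745 to 86079041) had 154, 170.5 and 272 CPM as the lowest, median and highest of 6 QSC libraries and 11, 13.7 and 38.8 CPM in ASCs, a log2 fold change of −3.36 ± 0.32 (SE, adjusted p = 8.43e-07, edgeR). Tgfb2 fell from a median of 60.2 CPM (48.7 to 98.3) to 24.2 CPM (17.9 to 31.7), a log2 fold change of −1.46. Tgfb1 (ENSMUSG00000002603.15, chromosome 7, 25687002 to 25705077) rose from 7.57 CPM (5.03 to 10.9) to 25.2 CPM (16.8 to 131), and its log2 fold change of 2.47 had a 95% confidence interval from 1.41 to 3.53 (adjusted p = 0.000691, edgeR). For all 3 ligands every ASC library lay on 1 side of every QSC library. The highest Tgfb1 value was that of ASC-928, and without it the log2 fold change was 1.62 (adjusted p = 2.89e-05), with the other ASC libraries at 16.8 to 33.2 CPM.

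Latent TGF-β binding proteins tether the inactive ligand to the extracellular matrix. Ltbp4 (ENSMUSG00000040488.17, chromosome 7, 27305136 to 27337692) fell from a median of 1496 CPM (1195 to 1506) in QSCs to 58.9 CPM (37.5 to 120.2) in ASCs, a 21-fold difference (log2 fold change −4.39 ± 0.26, SE, adjusted p = 1.26e-08, edgeR). Ltbp3 fell by 2.66 and Ltbp1 by 1.49 on the log2 scale, the latter from 808 CPM (739.7 to 956) to 306 CPM (178 to 365). Ltbp2 (ENSMUSG00000002020.15, chromosome 12, 84783212 to 84876532), which does not bind latent TGF-β, went the other way, from 0.662 CPM (0.197 to 1.23) to 39 CPM (18.8 to 60.7), a log2 fold change of 5.87 ± 0.44 (adjusted p = 9.72e-08). In all 4 genes the states did not overlap, and Ltbp2 had the largest rise among the members.

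Of the 8 BMP ligands, 3 rose, 3 fell and 2 were not called. The 2 ligands with the most RNA in QSCs fell. Bmp6 (ENSMUSG00000039004.6, chromosome 13, 38345107 to 38500302), known mainly for its role in iron balance, had 253, 339 and 389 CPM as lowest, median and highest in QSCs and 1.73, 4.73 and 19.9 CPM in ASCs, a log2 fold change of −5.38 ± 0.52 (adjusted p = 1e-06, edgeR). Bmp4 (ENSMUSG00000021835.15, chromosome 14, 46383520 to 46390669), a ligand of early mesoderm and of satellite cell expansion, fell from 173 CPM (140 to 188) to 7.88 CPM (3.69 to 12.9), a log2 fold change of −4.46 ± 0.3 (adjusted p = 3.78e-08). The lowest QSC library lay above the highest ASC library by more than the range within either state for both genes. The ligands that rose, Bmp5, Bmp8a and Bmp8b, were scarce: their QSC means were 0.817, 0.0464 and 0.0115 CPM and their ASC means 3.04, 0.783 and 0.0832 CPM. For Bmp5, ASC-928 held the highest value (9.4 CPM) and the other ASC libraries 0.255 to 4.3 CPM. Bmp8b had 4 counts over all QSC libraries and 22 over all ASC libraries, and its call (adjusted p = 0.0488) held in 8 of 18 alternatives. Without ASC-928 neither Bmp5 nor Bmp8b was called: the log2 fold change of Bmp5 went from 1.90 to 1.10 (adjusted p = 0.0905) and that of Bmp8b from 2.56 to 2.33 (adjusted p = 0.0873). Bmp3 fell by 1.15 on the log2 scale, from a mean of 0.991 to 0.444 CPM. Bmp2 (6.58 ± 1.95 against 5.27 ± 1.58 CPM, SD, n = 6 each) and Bmp7 (0.912 ± 0.221 against 1.16 ± 1.04 CPM) were not called.

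Among the GDFs, Gdf3 rose from a median of 0.449 CPM (0.3 to 1.03) to 3.64 CPM (1.44 to 6.35), a log2 fold change of 2.89 (adjusted p = 3.05e-05, edgeR). Gdf6, a ligand of joint and skeletal patterning, fell from 19.9 CPM (14.1 to 34.1) to 2.6 CPM (1.25 to 7.5), a log2 fold change of −2.59. Gdf7 had 187 counts over the QSC libraries (0.313 to 1.35 CPM) and 0 after rounding in every ASC library, and so was at least 51.9-fold lower in ASCs when set against a floor of 3 counts over the group (counting error only). The states did not overlap in any of these 3 genes. Gdf9 fell by 2.05 on the log2 scale. Gdf10 rose by 2.36, with a highest ASC value of 5.42 CPM in ASC-928 and 0.171 to 1.07 CPM in the others, and was not called without ASC-928 (log2 fold change 0.97, adjusted p = 0.131). Gdf15, a stress-induced ligand of the GFRAL receptor, was not called (12, 7.47 and 21.6 CPM as median, lowest and highest in QSCs, 19.1, 12.1 and 25 CPM in ASCs), and its 2 QSC genotypes differed, as given with the genotype comparison.

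The activin subunits moved in opposite directions. Inhbb (ENSMUSG00000037035.5, chromosome 1, 119415465 to 119422248), the activin βB subunit, fell from 104 CPM (67.6 to 218) to 21.4 CPM (10.8 to 28.9), a log2 fold change of −2.69 ± 0.31 (adjusted p = 6.15e-06, edgeR). Inhba, the βA subunit, rose from 1.64 CPM (1.07 to 1.9) to 6.76 CPM (1.25 to 15), a log2 fold change of 2.20 (adjusted p = 0.00239), and its states overlapped because ASC-246 (1.87 CPM) and ASC-1818 (1.25 CPM) lay within the QSC range. Gdf11, the closest relative of myostatin, rose from 4.23 CPM (2.42 to 5.61) to 20.2 CPM (16.3 to 26.7), a log2 fold change of 2.34 ± 0.21 (adjusted p = 6.04e-07), and ASC-928 (20.7 CPM) lay among the other ASC libraries. Mstn was at 0.134 to 0.259 CPM in QSCs and 0 to 0.349 CPM in ASCs and was not called, with a confidence interval of the log2 fold change from −2.04 to 0.81.

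No receptor was called higher in ASCs over all libraries. Tgfbr3 (ENSMUSG00000029287.14, chromosome 5, 107106570 to 107289629), a co-receptor that presents ligand to the kinases, fell from 673 CPM (532 to 779) to 27.7 CPM (12.9 to 59.9), a log2 fold change of −4.45 ± 0.31 (adjusted p = 4.35e-08, edgeR). Of 4 type II receptors 3 fell. Acvr2b (ENSMUSG00000061393.14, chromosome 9, 119402118 to 119434995), a receptor of activins and myostatin, went from 24.2 CPM (15.2 to 34.1) to 4.04 CPM (2.86 to 5.14), a log2 fold change of −2.58 ± 0.22. Its relative Acvr2a fell by 1.23, from 95.2 CPM (74.7 to 117) to 40.2 CPM (35.6 to 48.3), and Bmpr2 by 0.42 on the log2 scale. The states did not overlap in Tgfbr3, Acvr2a or Acvr2b.

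The TGF-β receptor kinases Tgfbr1 and Tgfbr2 were not called over all libraries, and leaving out ASC-928 changed that. Tgfbr2 had 153 CPM (141 to 208) in QSCs and 128 CPM (89 to 216) in ASCs, with 216 CPM in ASC-928. Tgfbr1 had 92.3 CPM (72.2 to 100.1) and 60.4 CPM (52 to 143), with 143 CPM in ASC-928. Without that library Tgfbr1 fell by 0.62 (adjusted p = 0.00013, edgeR), Tgfbr2 by 0.45 (adjusted p = 0.0117) and Acvr1b, an activin receptor, by 0.63 on the log2 scale (adjusted p = 0.00607). Of the other type I receptors Bmpr1a, the type I receptor with the most RNA per kb in QSCs, fell from 145 CPM (139.9 to 167) to 121 CPM (102 to 149), a log2 fold change of −0.29 (adjusted p = 0.0169). The Bmpr1a call held in 16 of 20 alternatives and was lost without ASC-1818, with limma-voom and against either QSC genotype alone. Acvr1c fell from a mean of 0.676 to 0.212 CPM (log2 fold change −1.66, adjusted p = 0.0442), and its call held in 8 of 19 alternatives, with log2 fold changes between −2.22 and −1.21. Acvrl1 and Bmpr1b were not called, and Acvr1 (53.9 ± 3.93 against 64.6 ± 7.86 CPM, SD, n = 6 each, adjusted p = 0.0244) was just under the 1.2-fold limit and was called higher in ASCs in 10 of 20 alternatives, DESeq2 among them.

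All 5 receptor SMADs were called, with 2 higher and 3 lower in ASCs. Smad3 (ENSMUSG00000032402.12, chromosome 9, 63646767 to 63757994), the TGF-β and activin effector, fell from 124 CPM (100.2 to 167) to 40.5 CPM (29.6 to 53.7), a log2 fold change of −1.62 ± 0.15 (adjusted p = 8.19e-07, edgeR). Its partner Smad2 rose by 0.42, from a mean of 43 to 57.6 CPM. On the BMP side Smad1 rose by 0.57 on the log2 scale (24.2 ± 1.92 to 35.9 ± 1.13 CPM, SD, n = 6 each), Smad5 fell from 180.3 CPM (168 to 194) to 135 CPM (105 to 162), a log2 fold change of −0.42, and Smad9 fell from 5.33 CPM (2.86 to 6.52) to 2.5 CPM (1.63 to 2.74), a log2 fold change of −1.10. Smad4, shared by both branches, had 129 CPM (123 to 143) and 109 CPM (102 to 123), and its difference (adjusted p = 0.0135) was just under the 1.2-fold limit. It stayed uncalled in 13 of 20 alternatives and was called lower in ASCs in the others, with log2 fold changes between −0.33 and −0.17 over all 20. Per kb, Smad5 (24.2 ± 1.37) and Smad3 (23 ± 3.96) did not differ beyond their spread in QSCs, whereas in ASCs Smad5 (18.1 ± 2.45) lay above Smad3 (7.49 ± 1.57).

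The inhibitory SMADs parted. Smad6 (ENSMUSG00000036867.7, chromosome 9, 63953076 to 64022059), whose window is printed above with the SMAD box in capitals, fell from 16.6 CPM (8.04 to 23.7) to 1.99 CPM (0.504 to 3.42), a log2 fold change of −3.06 ± 0.41 (adjusted p = 2.45e-05, edgeR). In QSCs its values were uneven, with 9.82 and 8.04 CPM in Gli3+/+ replicate 3 and Gli3∆/∆ replicate 1 and 16.1 to 23.7 CPM in the other 4 libraries. Smad7, which acts on both branches, had 22.7 CPM (18.9 to 29.4) in QSCs and 27.9 CPM (16.6 to 34.9) in ASCs and was not called, with a confidence interval from −0.2 to 0.55.

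Of the ID genes 3 fell and 1 rose. Id3 (ENSMUSG00000007872.3, chromosome 4, 136143497 to 136145755) had 343, 439 and 516 CPM as lowest, median and highest in QSCs and 103, 125 and 145 CPM in ASCs, a log2 fold change of −1.79 ± 0.14 (adjusted p = 1.13e-07, edgeR). Id1 (ENSMUSG00000042745.9, chromosome 2, 152736251 to 152737410) fell from 146 CPM (136 to 218) to 86.9 CPM (62.8 to 95.1), a log2 fold change of −0.91 ± 0.14 (adjusted p = 5.73e-05). Id4 (ENSMUSG00000021379.2, chromosome 13, 48261228 to 48266026) fell from 7.52 CPM (5.31 to 10) to 1.62 CPM (0.955 to 6.35). ASC-928 held the 6.35 CPM, and without it the log2 fold change of Id4 went from −1.68 to −2.32. Id2 (ENSMUSG00000020644.9, chromosome 12, 25093799 to 25097140), singled out after its values were seen, was the ID gene that rose, from 49.3 CPM (31.7 to 78.7) to 131 CPM (106 to 171), a log2 fold change of 1.40 ± 0.2 (adjusted p = 4.07e-05). The states did not overlap in Id1, Id2 or Id3. Per kb, Id3 exceeded Id2 in QSCs (241 ± 48.7 against 20.7 ± 6.95) and lay closer to it in ASCs (69.8 ± 7.62 against 54.8 ± 9.32).

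Among the secreted antagonists 3 rose and 2 fell. Fst, or follistatin, which binds activins and myostatin, rose from 2.76 CPM (1.28 to 4.08) to 14.5 CPM (6.95 to 21.8), a log2 fold change of 2.41 ± 0.34 (adjusted p = 3.86e-05, edgeR). Grem1, a BMP antagonist, rose from 0.221 CPM (0.0457 to 0.338) to 1.22 CPM (0.369 to 2.6), a log2 fold change of 2.69, and Nog from a mean of 0.149 to 0.571 CPM. Chrd, or chordin, another BMP antagonist, fell by 2.36, from a mean of 30.7 to 6 CPM. Fstl1 (ENSMUSG00000022816.11, chromosome 16, 37776873 to 37836514) fell from 425 CPM (330 to 452) to 98.5 CPM (57.2 to 390.4), where ASC-928 held the 390.4 CPM, inside the QSC range, and the other ASC libraries reached at most 99.3 CPM. Its log2 fold change was −1.54 ± 0.39 (adjusted p = 0.0036) and −2.20 without ASC-928 (adjusted p = 3.66e-08). Fstl3 had 11.1 CPM (8.41 to 33.5) and 7.74 CPM (3.26 to 13.8) and missed the threshold (adjusted p = 0.0541). It was called lower without ASC-928 (adjusted p = 0.021) and without any 1 of Gli3+/+ replicate 1 and Gli3∆/∆ replicates 2 and 3. Of the pair matched by name, Bmp1 fell from 311 CPM (273 to 355) to 90.8 CPM (60.5 to 173) and Bmp2k rose from 29.6 CPM (23.4 to 34.9) to 45.3 CPM (37.9 to 71.1).

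**Figure D3:**
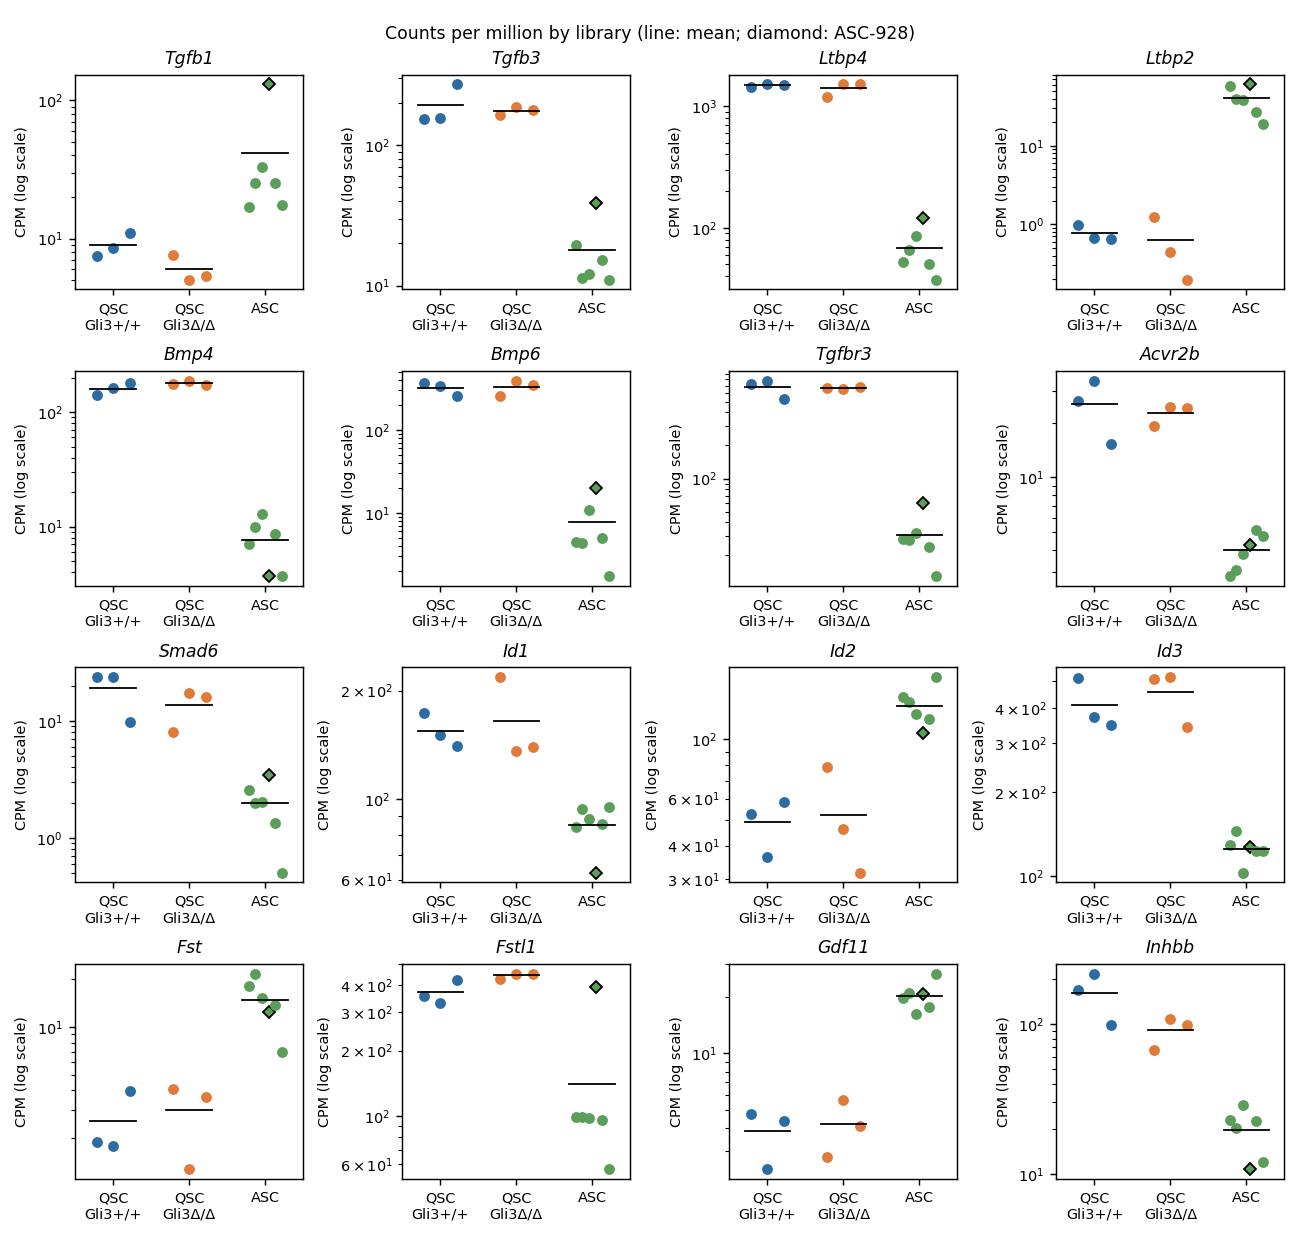
CPM of 16 members in each library on a log scale, for Gli3+/+ QSCs (3 libraries), Gli3∆/∆ QSCs (3) and ASCs (6), with lines at group means and a diamond for ASC-928. Bmp4, Bmp6, Ltbp4 and Tgfbr3 are apart between the states in every library, and ASC-928 is far above the other ASC libraries in Tgfb1 (131 CPM) and Fstl1 (390.4 CPM).

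Without ASC-928, 44 members were again called, 31 lower and 13 higher. The calls of Bmp5, Bmp8b, Gdf10 and Acvr1c were lost and those of Acvr1b, Tgfbr1, Tgfbr2 and Fstl3, all lower in ASCs, were gained. Bmp3, Bmp5, Bmp8b, Gdf10, Acvr1c and Bmpr1a were the called members that any 1 library could take below the threshold. Against the Gli3+/+ QSC libraries alone 39 members were called and against the Gli3∆/∆ QSC libraries alone 40 members, both fits added after the data were seen. Over all genes 14848 were called with all libraries. Of these, 14194 stayed called without ASC-928, 12017 against Gli3+/+ QSCs alone and 11915 against Gli3∆/∆ QSCs alone. These all-gene counts are of calls kept, whereas the counts of members include calls gained. Of the 44 calls of members, 4 were lost without ASC-928, 6 against Gli3+/+ QSCs alone and 5 against Gli3∆/∆ QSCs alone. The split of all genes into higher and lower in these fits is not given, so that of the members has no share beside it. Without ASC-928 the largest differences stayed of similar size: Ltbp4 had a log2 fold change of −4.66, Tgfbr3 of −4.78, Bmp6 of −5.97 and Ltbp2 of 5.69.

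**Figure D4:**
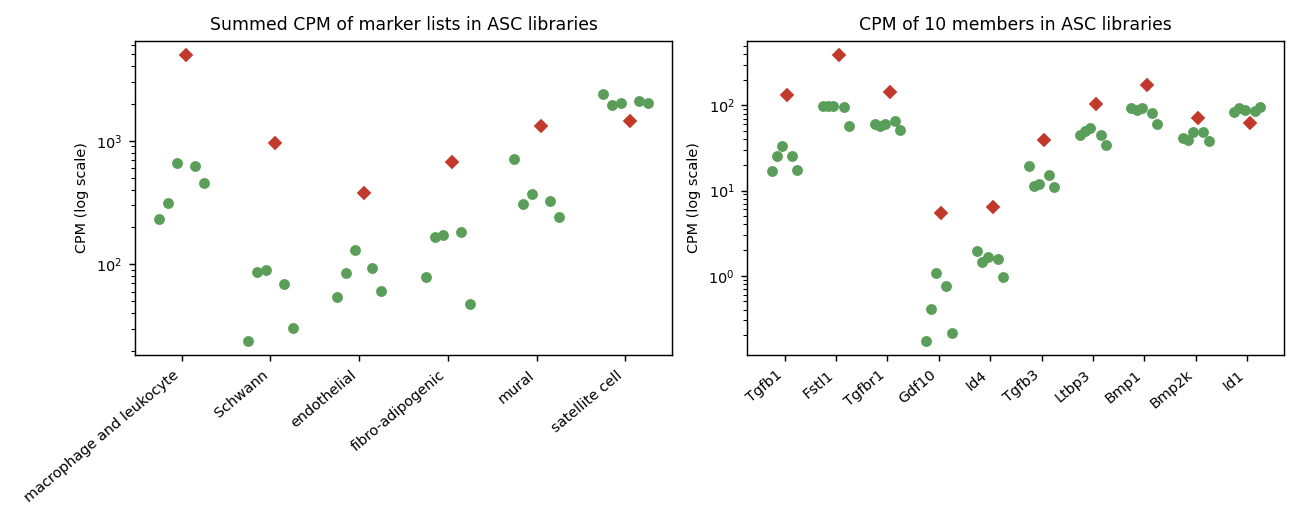
Summed CPM of 6 marker lists (left) and CPM of 10 members (right) in the 6 ASC libraries, on a log scale, with ASC-928 as a red diamond. ASC-928 has the highest sums of the macrophage and leukocyte (4939 CPM), Schwann, endothelial, fibro-adipogenic and mural lists, the lowest satellite cell sum (1452 CPM against 1963 to 2373), the highest values of 9 members and the lowest of Id1.

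Of 64 further genes of the pathway (modulators, co-receptors, matrix partners and targets), 55 were in the count table. Between states 30.4% of all genes were called higher and 28.8% lower, and of protein-coding genes 39.1% and 28.4%. Of the 55 pathway genes 38 were called, 18 higher and 20 lower, with a median log2 fold change of 0.11. The largest fall was that of Chrdl2, a chordin-like BMP antagonist, from a mean of 164 to 1.21 CPM (log2 fold change −7.08, adjusted p = 4.95e-08, edgeR), and the largest rise that of Itgb6, an integrin subunit that activates latent TGF-β, from 0.299 to 26.2 CPM (log2 fold change 6.47, adjusted p = 3.51e-08). The BMP co-receptors Rgma and Rgmb fell by 2.73 and 2.55 on the log2 scale. No gene of this list was called between QSC genotypes by edgeR, where 5 (9.09%) had an unadjusted p under 0.05, against 7.11% of all genes.

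Between QSC genotypes 1 of 58 members (1.72%) was called, against 88 of 25093 genes (0.351%) and 0.265% of protein-coding genes called by the same rule. Gdf15 (ENSMUSG00000038508.7, chromosome 8, 70629393 to 70632456) had 21.6, 16.7 and 15.4 CPM in Gli3+/+ replicates 1 to 3 and 7.47, 8.59 and 7.85 CPM in Gli3∆/∆ replicates 1 to 3. The genotypes did not overlap, and the Gli3∆/∆ libraries, although not the Gli3+/+ libraries, also lay below every ASC library (12.1 to 25 CPM). The summed Schwann markers, lower in Gli3∆/∆, and fibro-adipogenic markers, higher in Gli3∆/∆, also did not overlap between the genotypes. Of the fibro-adipogenic markers Dpt and Dcn were higher in Gli3∆/∆ without overlap, and Pdgfra, Ly6a, Lum, Smoc2 and Col15a1 overlapped. The part of the Schwann and fibro-adipogenic markers in this result and in those of the other members was not tested. Gdf15 fell by 1.2 ± 0.17 on the log2 scale (SE, 95% confidence interval −1.59 to −0.80, adjusted p = 0.0278, edgeR), or 2.29-fold. The call was lost without any 1 of 5 of the 6 libraries (adjusted p between 0.0671 and 0.183, log2 fold change between −1.06 and −1.24) and in 1 fit over all 12 libraries (adjusted p = 0.44). The count of Gli3 itself, which includes the exons left in place, was 9.4 to 11.3 CPM in Gli3+/+ and 6.27 to 10.7 CPM in Gli3∆/∆ QSCs (log2 fold change −0.22, adjusted p = 0.916) and does not check the genotype.

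Beside Gdf15, 7 members had an unadjusted p under 0.05 and missed the adjusted threshold. Thus 8 of 58 (13.8%) had an unadjusted p under 0.05, against 7.11% of all genes. The 8 include Bmp1 and Bmp2k, which were matched by name only. Bmp2 had 7.66, 7.52 and 9.26 CPM in Gli3+/+ and 5.99, 5.16 and 3.85 CPM in Gli3∆/∆ QSCs (log2 fold change −0.74, adjusted p = 0.425). Inhbb had 168, 218 and 98.8 CPM against 67.6, 109 and 98.6 CPM (log2 fold change −0.84, adjusted p = 0.481). The genotypes overlapped in Inhbb and not in Bmp2. Id4 had 10, 8.8 and 7.41 CPM against 7.64, 5.54 and 5.31 CPM, and Tgfb1 7.51, 8.51 and 10.9 CPM against 7.62, 5.03 and 5.39 CPM. These genes differed by −0.53 and −0.61 on the log2 scale, with adjusted p = 0.656 and 0.639, and their genotypes overlapped.

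Bmp3, a scarce BMP antagonist-like ligand, had 0.599, 0.764 and 0.537 CPM in Gli3+/+ and 1.49, 0.853 and 1.7 CPM in Gli3∆/∆ QSCs (log2 fold change 1.05, adjusted p = 0.571). Bmp1 had 283, 284 and 273 CPM against 339, 351 and 355 CPM, a log2 fold change of 0.28 (adjusted p = 0.671), and Bmp2k 30.9, 34.9 and 34 CPM against 28.3, 23.6 and 23.4 CPM, a log2 fold change of −0.44 (adjusted p = 0.478). The genotypes did not overlap in these 3 genes. The same held for Smad4 (132, 142 and 143 against 127, 124 and 123 CPM) and Fstl1 (357, 330 and 423 against 426, 452 and 451 CPM), at adjusted p = 0.854 each. Fstl1 and Bmp1, like the fibro-adipogenic sum, which is mostly Dpt and Col15a1, had their higher values in the Gli3∆/∆ libraries. In all, the genotypes did not overlap in 7 members (12.1%), Bmp1 and Bmp2k included, 4 lower and 3 higher in Gli3∆/∆. This share is near the 13.1% of all genes.

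The other 48 members had an unadjusted p of at least 0.05 and genotypes that overlapped. The fitted values of all members were lower in Gli3∆/∆ for 37 and higher for 21, with a median log2 fold change of −0.13. The median was −0.03 over all genes, −0.02 over protein-coding genes and −0.12 over the further pathway genes, so it is not particular to the members. For the members with the most RNA per kb in QSCs the confidence intervals spanned 0: that of Id3 ran from −0.33 to 0.58, of Ltbp4 from −0.43 to 0.20, of Id1 from −0.40 to 0.51, of Tgfbr3 from −0.40 to 0.31 and of Bmp6 from −0.40 to 0.46. Ligands near 1 CPM or below left wider intervals, such as −0.80 to 1.02 for Bmp5 and −1.01 to 0.69 for Bmp7. That of Bmp8a, with 15 counts over all QSC libraries, ran from −7.25 to 0.32, and no difference was detected.

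**Figure D5:**
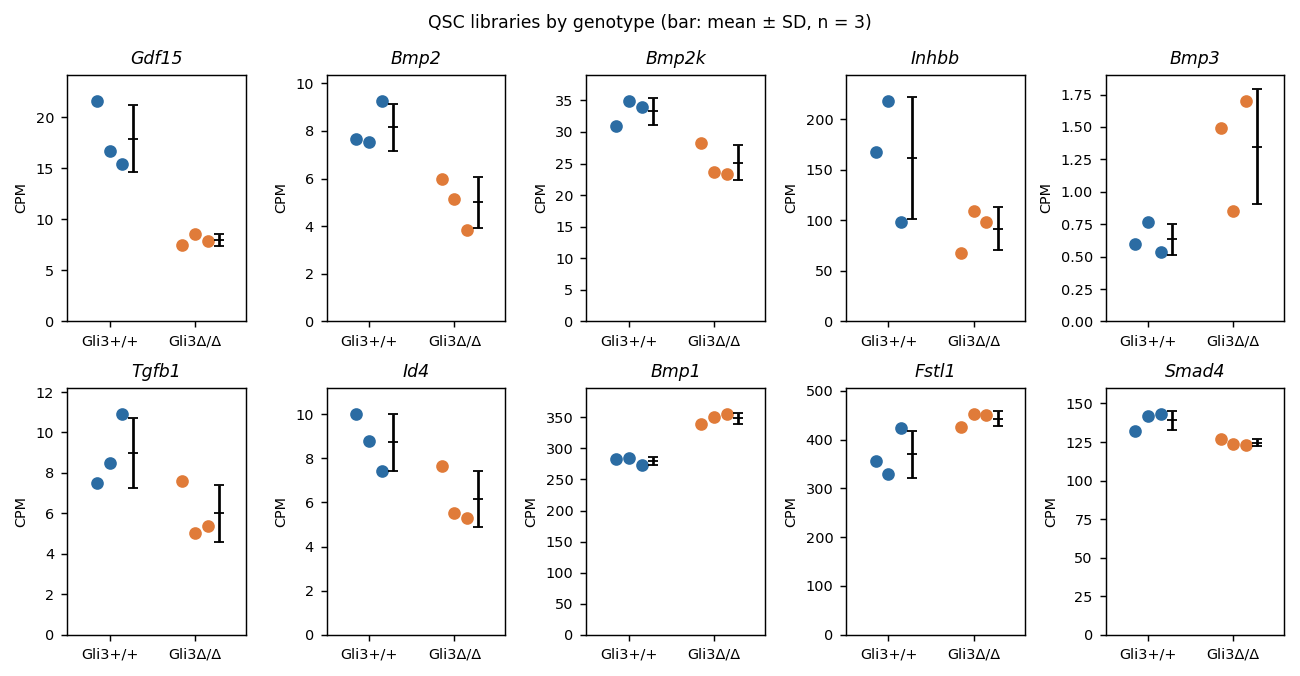
CPM of 10 members in the 3 Gli3+/+ and 3 Gli3∆/∆ QSC libraries, with the mean ± SD beside the points, for members with an unadjusted p under 0.05 or without overlap. Gdf15, the member called, is at 15.4 to 21.6 CPM in Gli3+/+ and 7.47 to 8.59 CPM in Gli3∆/∆ QSCs.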

How the data were processed

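The labels describe 12 RNA-seq libraries of sorted satellite cells, made from 20 ng of RNA with a strand-specific polyA kit. The deposited values are estimated counts per gene without normalization: by their methods the authors quantified the transcripts of GENCODE vM19 (GRCm38) in Salmon, summed them per gene in tximport and kept genes with at least 5 reads in at least 2 samples, which all 25093 genes pass. Salmon shares out reads that match several transcripts, and 48% of values differed from a whole number (no tolerance), so genes with near-identical copies, such as Bmp8a and Bmp8b, are uncertain. The authors also deposited DESeq2 comparison tables of fold changes and p-values, which were not used, apart from gene biotype and a mean signal per gene (the authors' mean of normalized counts), which differed by a median of 1.44% from that of the 12 columns.

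Counts were rounded, scaled by TMM and tested with edgeR 4.0.16 in R 4.3.3 (quasi-likelihood, no further filter, Benjamini-Hochberg adjustment over all genes). A call required a fold change of 1.2 or more together with an adjusted p below 0.05. Gli3∆/∆ was compared with Gli3+/+ in the 6 QSC libraries, and ASCs with QSCs in all 12. ASC columns carry no genotype, so no ASC genotype comparison was made. The fits were repeated with limma 3.58.1 (quality-weighted voom) and DESeq2 1.42.0, with its size factors in edgeR, with a minimum of 10 counts per library or filterByExpr, without the minimum fold, with replicate number as a block, as 1 fit over all libraries and without each library. The scripts were tested on simulated data. The p-values measure the spread between libraries, which in QSCs combine mice.

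Members were chosen by symbol, and they, the lists of markers and further pathway genes were chosen with earlier results of these data known. Values are given for the members of each role with the largest change or the highest level per kb, those called or with an unadjusted p under 0.05 in QSCs and those whose QSC genotypes do not overlap, and by range and count otherwise. Other members named were chosen after their values were seen. GENCODE vM21, also on GRCm38, gave gene positions and exon lengths (96.3% of identifiers have the same version), promoter windows from RefSeq. Confidence intervals of fold changes rest on the spread between libraries, and the floor of 3 counts covers counting error only.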

Additional observations from a re-analysis of the deposited data

Results flagged for a closer look

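In each member the 6 ASC libraries were tested for 1 value far from the rest (Dixon's test, gap over range above its 95% critical value). The test marked 10 of 58 members, where chance would mark about 1 in 20, and in each of the 10 the library was ASC-928. The same test marked 20.3% of all genes and 22.5% of protein-coding genes, against 17.2% of the members, and marked them for ASC-928 in 13.8% and 18.7%, so the count is not particular to the family. Its values were 131 CPM for Tgfb1 (nearest library 33.2), 390.4 CPM for Fstl1 (99.3), 143 CPM for Tgfbr1 (65.8), 173 CPM for Bmp1 (93.8), 104 CPM for Ltbp3 (54.8), 71.1 CPM for Bmp2k (49.2), 38.8 CPM for Tgfb3 (19.4), 6.35 CPM for Id4 (1.94) and 5.42 CPM for Gdf10 (1.07). For Id1 it was the lowest, at 62.8 CPM (nearest library 83.7). The macrophage and leukocyte, Schwann, endothelial, fibro-adipogenic and mural marker sums and that of the dissociation response were also highest in ASC-928, and their part in these values was not tested. Without that library Tgfb1, Tgfb3, Ltbp3, Id1, Id4, Fstl1, Bmp1 and Bmp2k remained called in the same direction, Gdf10 was not called and Tgfbr1 was called lower in ASCs.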

How the results depend on the processing

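Between states, the counts of genes and of members called stayed within 1.5 times the reported counts under every alternative run. Members called ranged from 39 to 46, and from 41 to 46 when leaving out each library. Direction turned only in members that were not called: Bmp7 and Acvrl1 at −0.38 and −0.33 with limma-voom and at −0.26 each without ASC-928 (up to 0.6 and 0.42 without ASC-1818), and Bmp2 at 0.07 against the Gli3∆/∆ QSC libraries alone, an alternative added after seeing the data. Between QSC genotypes, 384 genes were called by DESeq2, 48 with at least 10 counts in every library (fewer genes tested) and 3 in 1 fit over all 12 libraries, against 88. Leaving out each library gave 58 to 103 genes (58 without Gli3∆/∆ replicate 3) and 0 to 1 members. Gdf15 remained called by DESeq2, limma-voom, size factors and both filters (adjusted p between 3.89e-07 and 0.0347) and without Gli3+/+ replicate 3 (adjusted p = 0.0209), and was lost with 1 fit over all libraries, leaving 0 members. With the replicate block 79 genes and 0 members were called (Gdf15 at adjusted p = 0.11). QSC libraries share only a number: same-numbered deviations correlated at −0.119, −0.0342 and −0.0136, and none correlated best with its own number. The cause of these changes was not tested. Levels per kb with the longest transcript in place of all exons moved by more than 1 SD for 8 of 28 members (Ltbp1, Ltbp4, Tgfbr1, Smad4, Smad5, Id3, Fstl1 and Bmp1). Not run, since ASC columns carry neither genotype nor replicate number, were the ASC genotype comparison, the state comparison within genotypes, the genotype by title and the block between states.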
